A study of Homo sapiens with 4 samples.

Results

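The MYC, MAX and MXD network is the group of transcription factors that compete for the DNA-binding partner MAX, together with the parallel arm built on MLX. Its members here were the 10 genes MYC, MAX, MXD1, MXD3, MXD4, MXI1, MNT, MGA, MLX and MLXIP, chosen by gene symbol, and 8 of the 10 were among the 6828 genes of the deposited table. MAX and MGA were not among the listed genes, so nothing can be said of their level. RNA-seq was performed on A549 cells, an epithelial cell line from a human lung adenocarcinoma, 72 h after infection with lentiviruses carrying either a control hairpin (shctrl) or a hairpin against the long noncoding RNA USP2-AS1 (shUSP2-AS1), with 2 libraries per group. Both hairpins were carried by the PLKO.1 vector, and the labels do not say which USP2-AS1 hairpin was used. Differences between the hairpins and loss of USP2-AS1 therefore cannot be told apart.

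MYC activates transcription as a dimer with MAX, and the dimer binds the E-box CACGTG in promoters. The proteins of the MXD family (MXD1, MXI1, MXD3 and MXD4) and MNT also dimerize with MAX, bind the same sequence, and recruit SIN3 corepressors, so they act as antagonists of MYC. MGA pairs with MAX inside a Polycomb complex. MLX takes the place of MAX for the glucose-responsive activator MLXIP, also called MondoA, and can also pair with MXD1, MXD4 and MNT. In proliferating cells MYC prevails, and MXD proteins are known for their expression in cells that leave the cycle. The study concerns the relation between USP2-AS1 and c-Myc, the protein encoded by MYC.

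The E-box is shown where it occurred in the USP2-AS1 sequence and in the promoters of the network, since it is the letters that MYC and its antagonists share. The first is 30 bases of exon 1 of the USP2-AS1 transcript ENST00000498979, from the sequence given by the study, at chr11:119381811-119381840 on the plus strand of GRCh38 in GENCODE annotation. The other 3 are from RefSeq promoters of GRCh38.p14, which run from 250 bases before to 50 bases after a gene start. They lie at chr4:2262330-2262359 on the minus strand for MXD4, chr17:2401236-2401265 on the minus strand for MNT and chr17:42567038-42567067 on the plus strand for MLX. Capitals mark the E-box, which reads the same on both strands.
USP2-AS1: tacacagagaacCACGTGgaggaaaagcac
MXD4: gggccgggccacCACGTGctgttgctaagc
MNT: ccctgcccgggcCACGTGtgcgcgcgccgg
MLX: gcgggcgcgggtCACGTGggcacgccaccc
Promoter sequences were found for 9 of the 10 members, 14 sequences in all, and none was matched for MYC. An E-box was present in 3 of these 9 genes, beside 8.77% of all 27305 genes with a promoter sequence. It began 238 bases before the RefSeq gene start in MXD4, 193 bases before it in MNT and 50 bases before it in MLX, and for MNT and MLX this start differs from the one in the deposited table. A match is a description of these letters and not a binding site measured here. The paper itself reports, from ChIP, that c-Myc bound a predicted site in the first exon region of USP2-AS1. Its reporter assays gave activity that depended on this site. Whether that site is the E-box printed above was not examined.

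The listed values are normalized read counts, that is, read counts divided by a size factor for each library. Every listed gene had an adjusted p below 0.05 in the comparison made by the authors, so the table was selected on the contrast described here. In the limma fit, 100% of the genes tested (6811 of 6812) again had a Benjamini-Hochberg adjusted p below 0.05, and the same number had no overlap between groups. In what follows "rose" and "fell" mean an adjusted p below 0.05 in limma, and "called" means in addition that the log2 fold change was 1 or more in size. Called genes made up 29.7% of all genes tested, 16.1% higher and 13.5% lower in shUSP2-AS1 cells, and the median log2 fold change of all genes tested was 0.19. Among the 6092 genes with a mean of at least 100 this median was -0.23, with 648 genes called higher and 715 lower, so the balance of the table depended on the level of the genes kept. With RLE scaling 932 genes were called higher and 1143 lower. The hairpin target USP2-AS1 had normalized read counts of 23.2 and 24.2 in shctrl against 2.10 and 6.16 in shUSP2-AS1 libraries, which gave a log2 fold change of -2.39 with a standard error of 0.56 (limma, adjusted p = 0.000597). Reads recovered on the listed genes ranged from 10772788 to 14120472 per library, a part of the whole depth, and each member had 89 to 3069 reads per library. Of 12 markers of A549 and epithelial cells, 8 were listed, with a summed normalized read count of 415238 and 436650 in shctrl and 390621 and 397321 in shUSP2-AS1 libraries. Of these 8, 3 rose and 5 fell, with ALDH1A1, the largest part of the sum, at 0.41 and KRT18 called lower at -1.05 (-0.99 and not called with upper quartile scaling). Of 12 markers of fibroblasts, muscle, endothelium and blood cells, 3 were listed (COL1A1, LUM and ACTA2) and all 3 were called higher, with a summed normalized read count of 380 and 443 in shctrl and 1013 and 1093 in shUSP2-AS1 libraries. The call of COL1A1 was lost without replicate 1 of shctrl (0.96) or replicate 2 of shUSP2-AS1 (0.94), and with RLE scaling or DESeq2 with its own size factors (0.93 in both). LUM rested on 2 and 1 reads in shctrl, against 24 and 18 in shUSP2-AS1 libraries. The other 9 of the 12 markers were not among the listed genes. The part of these cell types in the results below was not tested, and the reference genes GAPDH and ACTB had log2 fold changes of -0.17 and 0.41.

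Within the network, MYC fell while its antagonists split. MXD4, MXD1 and MNT rose, whereas MXD3 and MXI1 fell. In the MLX arm, MLXIP rose and MLX fell. Thus 4 members rose and 4 fell, beside 50.6% and 49.4% of all genes tested, and their median log2 fold change was -0.02. Of the 8 members, 3 were called (29.7% of all genes tested), MXD4 and MXD1 higher (16.1%) and MXD3 lower (13.5%). All 8 members had no overlap between the groups, which was also so for 100% of the genes tested.

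**Figure D1:**
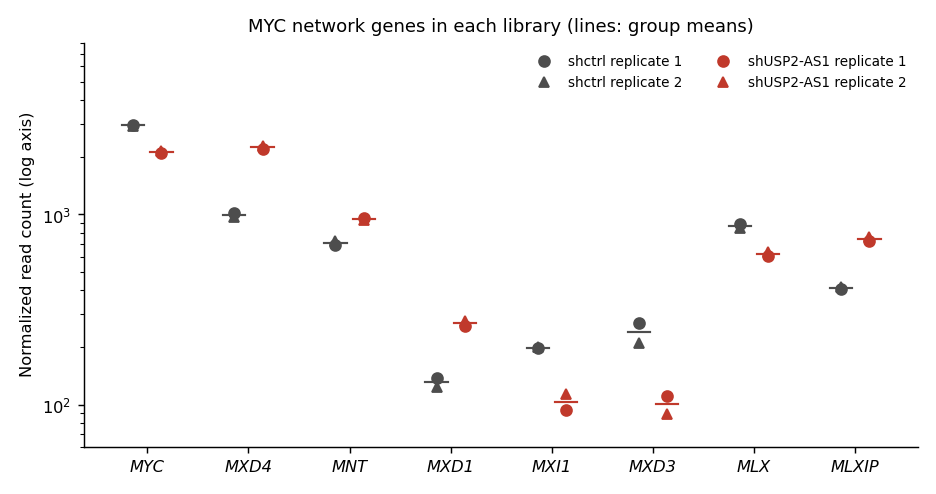
Normalized read count (log axis) of the 8 listed network genes in each of the 4 libraries, with circles for replicate 1, triangles for replicate 2 and horizontal lines for group means. MYC, MXI1, MXD3 and MLX were lower in both shUSP2-AS1 libraries than in both shctrl libraries, and MXD4, MNT, MXD1 and MLXIP were higher in both.

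MYC (ENSG00000136997, chromosome 8, 127735434 to 127742951, plus strand, GRCh38), the activator of the network, had normalized read counts of 2965 and 2928 in control cells against 2104 and 2168 after knockdown. Both shUSP2-AS1 libraries lay below both shctrl libraries. The mean went from 2947 ± 26.7 (SD, n = 2) to 2136 ± 44.8 (SD, n = 2), a fold change of 0.725. The log2 fold change was -0.46 (95% interval -0.58 to -0.35, standard error 0.05, limma adjusted p = 2.86e-07), so MYC fell but was not called. In these bulk RNA samples, fewer cells that express a gene and less RNA per cell cannot be told apart. The protein-coding genes whose profile over the 4 libraries was most like that of MYC, by Euclidean distance of centred log2 values among 6362 genes, were EXOC3, DUSP12, RNASEH1, YWHAZ and ERAL1. Their distances were 0.006 to 0.023 and their log2 fold changes -0.48 to -0.46. MYCN and MYCL, the paralogs of MYC, were not among the listed genes.

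Among the antagonists, MXD4 (ENSG00000123933, chromosome 4, 2247432 to 2262109, minus strand), a MAX partner that represses transcription, had the highest level per kilobase of gene length and one of the largest changes. Its normalized read counts were 1017 and 971 in control cells against 2207 and 2297 after knockdown. The shUSP2-AS1 values were 2.26 times the shctrl values, with a log2 fold change of 1.18 (95% interval 1.05 to 1.31, standard error 0.06, limma adjusted p = 8.33e-12). The whole interval lay above the fold threshold. Its promoter holds the E-box printed above.

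MXD1 (ENSG00000059728, chromosome 2, 69897688 to 69942945, plus strand), the founding member of the MXD family, had 138 and 124 normalized reads in the shctrl libraries. It had 261 and 275 in the shUSP2-AS1 libraries, above both controls. The log2 fold change was 1.03 (95% interval 0.75 to 1.30, standard error 0.13, limma adjusted p = 1.22e-06), so MXD1 lay just inside the fold threshold. The call was lost, with no change of direction, without replicate 2 of shctrl (log2 fold change 0.95), without replicate 2 of shUSP2-AS1 (0.99), and with RLE scaling (0.91) or DESeq2 with its own size factors (0.91).

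MNT (ENSG00000070444, chromosome 17, 2384073 to 2401104, minus strand) is the broadly expressed MAX partner that opposes MYC in cycling cells as well. It had normalized read counts of 688 and 724 in control cells against 962 and 934 after knockdown. The groups did not overlap, and MNT rose with a log2 fold change of 0.43 (95% interval 0.27 to 0.58, standard error 0.07, limma adjusted p = 2.73e-05), short of the fold threshold.

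MXD3 (ENSG00000213347, chromosome 5, 177301461 to 177312757, minus strand) is the family member known for expression in proliferating cells. It had 268 and 212 normalized reads in control cells against 111 and 89.8 after knockdown. These replicates were the most uneven of the network, yet both shUSP2-AS1 values lay below both controls. The log2 fold change was -1.24 (95% interval -1.58 to -0.90, standard error 0.16, limma adjusted p = 1.26e-06), and MXD3 was called lower. Leaving out single libraries moved it between -1.41 and -1.08. In GENCODE, 926 of the exon bases of MXD3, whose listed length is 5154 bases, are shared with RAB24 on the same strand and 1148 with PRELID1 on the opposite strand. RAB24 was not among the listed genes, and PRELID1 had a log2 fold change of -0.46. The part of these overlaps in the MXD3 value was not tested. The genes with profiles most like that of MXD3 were RHOV, KHK, GNB1L, AC107871.1 and SP4, at distances of 0.112 to 0.181.

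MXI1 (ENSG00000119950, chromosome 10, 110207605 to 110287365, plus strand), another SIN3-recruiting MAX partner, had 198 and 201 normalized reads in the shctrl libraries. It had 93.6 and 114 in the shUSP2-AS1 libraries, below both controls. The log2 fold change was -0.95 (95% interval -1.27 to -0.62, standard error 0.15, limma adjusted p = 1.65e-05). MXI1 therefore lay just outside the fold threshold and was called lower without replicate 2 of shUSP2-AS1 (-1.08), with RLE scaling (-1.06) and with DESeq2 and its own size factors (-1.06).

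**Figure D2:**
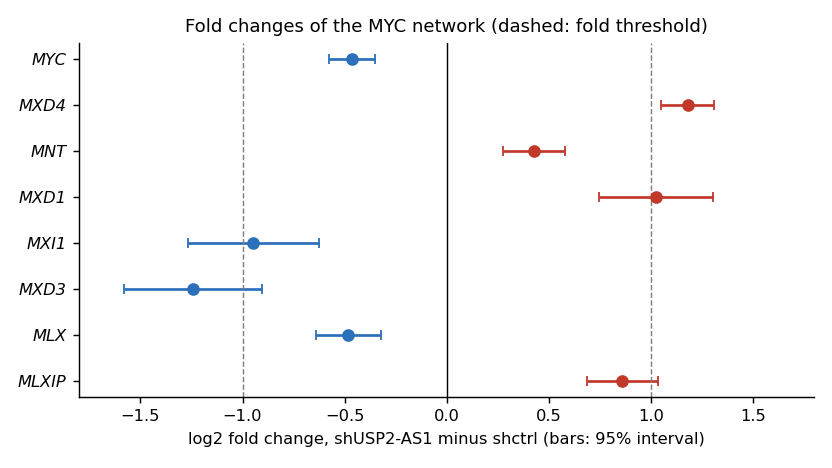
Log2 fold change of the 8 listed network genes between shUSP2-AS1 and shctrl cells from limma, with bars for the 95% interval and dashed lines at the fold threshold of 1 in either direction. The antagonists lie on both sides of 0, from -1.24 for MXD3 to 1.18 for MXD4, and MYC lies at -0.46.

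To contrast MYC with its antagonists, the log2 value of each antagonist was subtracted from that of MYC in every library. These differences are not per gene length, so only their change between groups is described. The ratio of MYC to MXD4 moved most. This log2 difference was 1.54 and 1.59 in control cells against -0.07 and -0.08 after knockdown. The change was -1.64, and the ratio fell to 0.320 of its control value. For MXD1 the log2 difference was 4.41 and 4.55 in shctrl and 3.01 and 2.98 in shUSP2-AS1 libraries, a change of -1.49. For MNT it was 2.11 and 2.01 against 1.13 and 1.21, a change of -0.89.
The ratio moved the other way for the antagonists that fell by more than MYC did. For MXD3 the log2 difference was 3.46 and 3.78 in shctrl and 4.23 and 4.58 in shUSP2-AS1 libraries, a change of 0.78. For MXI1 it was 3.90 and 3.86 against 4.48 and 4.24, a change of 0.48. In each of the 5 contrasts the groups did not overlap, and each gave p = 0.333 in a two-sided exact permutation test, the smallest p that 2 libraries against 2 allow. MYC was thus lower relative to 3 antagonists and higher relative to 2. Because the groups did not overlap, leaving out a library could not change a sign.

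**Figure D3:**
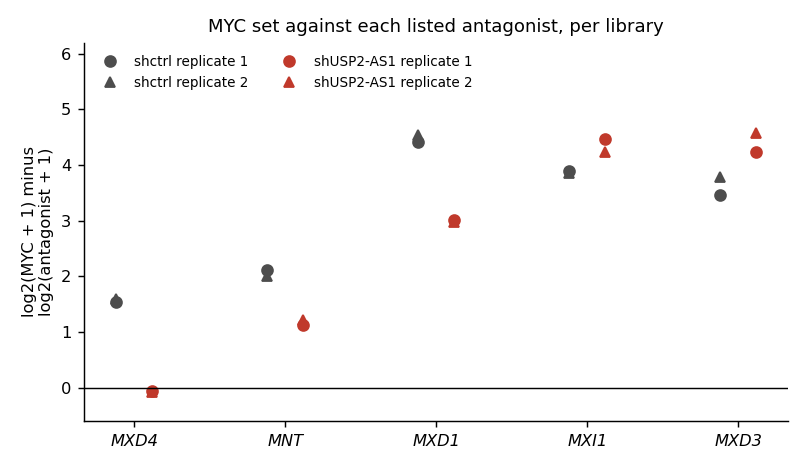
Difference between the log2 values (normalized read count + 1) of MYC and of each listed antagonist in the 4 libraries, with 0 marking equal counts. The difference was lower in shUSP2-AS1 than in shctrl libraries for MXD4, MNT and MXD1 and higher for MXI1 and MXD3.

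Levels of different genes were compared per kilobase of the gene length that the table lists. In shctrl cells MYC had the highest level of the network, with 643 ± 5.84 normalized reads per kb (SD, n = 2), followed by MLX with 204, MXD4 with 145, MNT with 81.2, MXD3 with 46.5, MXI1 with 33.8, MLXIP with 29.6 and MXD1 with 20.7. No neighbours in this order overlapped between libraries. In shUSP2-AS1 cells MYC was still first, with 466 ± 9.78 (SD, n = 2), and MXD4 came next with 328. MLX followed with 146, MNT with 109, MLXIP with 53.8 and MXD1 with 42.2, and MXD3 (19.5) and MXI1 (17.5) were last and overlapped.
Summed over the 5 listed antagonists, the level per kb was 334 and 319 in control cells against 510 and 521 after knockdown, 1.58 times as high on average. MYC was 1.93 and 2.0 times this sum in the control libraries and 0.900 and 0.907 times after knockdown. MXD4 made up 44.3% of the antagonist sum in both control libraries, against 62.9% and 64.1% after knockdown. MXI1 and MXD3 together made up 25.6% and 23.5% in shctrl and 7.34% and 7.03% in shUSP2-AS1 libraries, so the composition of the antagonists differed along with their total. MGA is not in this sum, the listed gene length can exceed that of the expressed transcript, and mRNA levels are not protein levels.

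**Figure D4:**
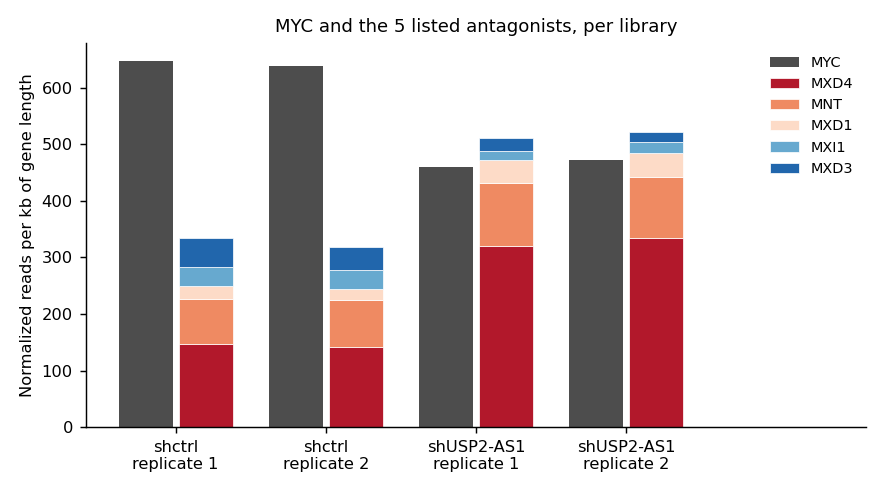
Normalized reads per kb of listed gene length in each library, with a grey bar for MYC and a stacked bar for the 5 listed antagonists. The antagonist stack is below the MYC bar in both shctrl libraries and above it in both shUSP2-AS1 libraries, and most of the difference is MXD4.

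In the parallel arm, MLXIP (ENSG00000175727, chromosome 12, 122078756 to 122147344, plus strand), the glucose-responsive activator MondoA, had normalized read counts of 408 and 414 in control cells against 730 and 763 after knockdown. It rose with a log2 fold change of 0.86 (95% interval 0.69 to 1.03, standard error 0.08, limma adjusted p = 2.99e-08) but was not called. Its partner MLX (ENSG00000108788, chromosome 17, 42567068 to 42573239, plus strand) had 888 and 847 in control cells against 606 and 637 after knockdown. It fell with a log2 fold change of -0.48 (95% interval -0.64 to -0.32, standard error 0.08, limma adjusted p = 1.12e-05). The log2 difference between MYC and MLX was 1.76 ± 0.03 (SD, n = 2) in control cells against 1.78 ± 0.02 (SD, n = 2) after knockdown, and here the groups overlapped. In GENCODE, 775 exon bases of MLX are shared with PSMC3IP on the opposite strand, which had 197 and 186 normalized reads in shctrl and 32.6 and 28.2 in shUSP2-AS1 libraries. Its part in the MLX value was not tested. MLXIPL, the relative of MLXIP known as ChREBP, was not among the listed genes.
In a list of 6 targets of MondoA and ChREBP, 5 were tested, 4 rose and 1 fell. Their median log2 fold change was 0.77, and 2 were called, both higher, beside 50.6% higher and 16.1% called higher among all genes tested. The called genes were TXNIP and ARRDC4, arrestin family genes that restrain glucose uptake and are known to be induced by MLXIP with MLX. The part of MLXIP and MLX in the changes of this list was not tested. ARRDC4 had 27.1 and 14.3 normalized reads in control cells against 206 and 199.9 after knockdown, a log2 fold change of 3.30 (limma, standard error 0.26, adjusted p = 2.25e-09). TXNIP had 3 and 0 reads in control cells against 32 and 30 after knockdown. The ratio of its summed reads, each sum corrected for the size factors of its libraries, was 19.3, with an exact 95% interval of 6.29 to 95.9 for counting error only.

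The corepressors, cofactors and regulators that surround the network were examined as lists written by hand, and most of their listed genes were lower in shUSP2-AS1 cells. Of 13 genes of the SIN3 and NCOR corepressors through which MXD proteins act, 8 were tested and all 8 fell. The median log2 fold change was -0.77 and 1 gene was called, beside 49.4% lower and 13.5% called lower among all genes tested. SUDS3, a SIN3 complex subunit, was the called gene, with a mean normalized read count of 906 in shctrl and 283 in shUSP2-AS1 and a log2 fold change of -1.68. SIN3A, the scaffold that MXD proteins bind, named here for its role after its value was seen, had 1977 and 1000.4 and a log2 fold change of -0.98. The other 5 genes of the list were not among the listed genes.
Of 19 MYC cofactors, 13 were tested and all 13 fell, with a median of -0.74, beside 49.4% lower and 13.5% called lower among all genes tested. ACTL6A, a subunit of chromatin-remodelling complexes, was the 1 called gene, with a log2 fold change of -1.06 that lost the call with upper quartile scaling (-0.999). Of 11 partners of MGA in the Polycomb complex PRC1.6, 5 were tested, 4 fell and 1 rose, with a median of -0.51. TFDP2, a dimer partner of E2F proteins, was the 1 called gene, lower at -1.17, beside the same shares of all genes tested. None of these directions changed under TMM, RLE or upper quartile scaling.

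Regulators of the MYC protein and of MYC mRNA were measured in the same way. Of 23 genes that control MYC protein turnover, 16 were tested, 13 fell and 3 rose, with a median of -0.62 and 6 genes called, all lower, beside 49.4% lower and 13.5% called lower among all genes tested. CIP2A, which protects MYC from dephosphorylation, had a mean normalized read count of 816 in shctrl and 103 in shUSP2-AS1 and a log2 fold change of -2.97 (limma, standard error 0.11, adjusted p = 1.90e-13). The mitotic kinases PLK1 and AURKA, which stabilize MYC family proteins, had log2 fold changes of -2.50 and -2.46. Of 17 genes that act on MYC transcription or mRNA, 12 were tested, 8 fell and 4 rose. Their median was -0.32, beside 49.4% lower, 50.6% higher and 16.1% called higher among all genes tested. The only called gene, IGF2BP3, which binds and stabilizes MYC mRNA, was higher, with 828 in shctrl and 1659 in shUSP2-AS1 (log2 fold change 1.00), and lost the call without replicate 1 of shctrl (0.95) or of shUSP2-AS1 (0.998), and with RLE (0.88) or TMM scaling (0.99). Of 9 other E-box factors of the same structural class, 4 were tested and 3 rose, beside 50.6% of all genes tested. TFAP4, itself a MYC target, was called lower at -1.23.

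Targets of MYC were lower in large part. Among 39 targets that serve the nucleolus and ribosome production, 35 were tested and all 35 fell, with log2 fold changes from -1.64 to -0.43 and a median of -0.88, beside 0.19 for all genes tested and -0.23 for those with a mean of at least 100. Of these, 8 were called, and the largest changes were in TCOF1 (-1.64), NOP56 (-1.36) and RRP9 (-1.32), which act in rRNA transcription and rRNA processing. Among 37 targets in metabolism and protein synthesis, 30 were tested, 26 fell and 3 rose, and the amino acid transporter gene SLC7A5 did not pass and changed sign with RLE scaling. The median was -0.61, and 4 genes were called lower and 1 higher, beside 13.5% and 16.1% of all genes tested. PPAT and PAICS, enzymes of purine synthesis, and TYMS, of thymidylate synthesis, were called lower at -2.17, -1.38 and -1.09.
Among 22 targets of the cell cycle, 17 were tested, all 17 fell and 15 were called, with a median of -1.91. TERT, the telomerase subunit, had the largest change, from a mean of 262 to 21.1 normalized reads (log2 fold change -3.58), ahead of MCM5 (-2.72) and PLK1 (-2.50). PLK1 also stands in the list of MYC protein turnover, and TFAP4 in that of other E-box factors. Many genes of the cell cycle list are also targets of E2F proteins. E2F1 itself, which is counted in this list among the called genes, had a log2 fold change of -2.12. The part of E2F1 in the change of this list was not tested. The called share was 15 of 17 for cell cycle targets and 8 of 35 for nucleolar targets, beside 13.5% called lower among all genes tested.
Genes that MYC represses lay on the other side. Of 12 such genes, 7 were tested, 6 rose and 1 fell, with a median log2 fold change of 1.01, and 4 were called, all higher, beside 50.6% higher and 16.1% called higher among all genes tested. They were CDKN1A, KLF6, MXD1 and TXNIP, of which MXD1 is also a member of the network. TXNIP also stands in the list of MondoA targets and reached the mean needed for testing only through its shUSP2-AS1 libraries. KLF6, a zinc finger transcription factor with a log2 fold change of 1.01, lost the call without replicate 1 of shctrl (0.95) or replicate 2 of shUSP2-AS1 (0.995), and with RLE (0.89) or TMM scaling (0.996). CDKN1A, which encodes the CDK inhibitor p21, went from a mean of 7213 ± 316 (SD, n = 2) to 20692 ± 104 (SD, n = 2), with a log2 fold change of 1.52. The study names a p53/p21 pathway and reports that USP2-AS1 seems to lower p53. The part of p53 in the change of CDKN1A was not tested.
Over all pathway lists together, each gene counted once and the network included, 156 genes were tested and 44 called, 8 higher and 36 lower. The called share of 28.2% was near the 29.7% of all genes tested, but the directions differed. The lists were written by hand with earlier results of these data known, so this difference only describes the genes chosen. The cell cycle list held 15 of the lower calls, the nucleolar list 8 and that of MYC protein turnover 6, with PLK1 in 2 of them. Of the calls, 81.8% were lower in the lists and 45.6% among all genes tested. Among genes with a mean of at least 100, 43 list genes were called, 7 higher and 36 lower, and 1363 of all 6092 genes. Lower calls then made up 83.7% in the lists and 52.5% among all genes. With RLE scaling, which shifted the median of all genes by -0.12, 59 list genes were called, 4 higher and 55 lower. Members of the lists were listed only if they had passed the authors' threshold, so these counts do not describe the genes of each pathway that are not in the table.

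**Figure D5:**
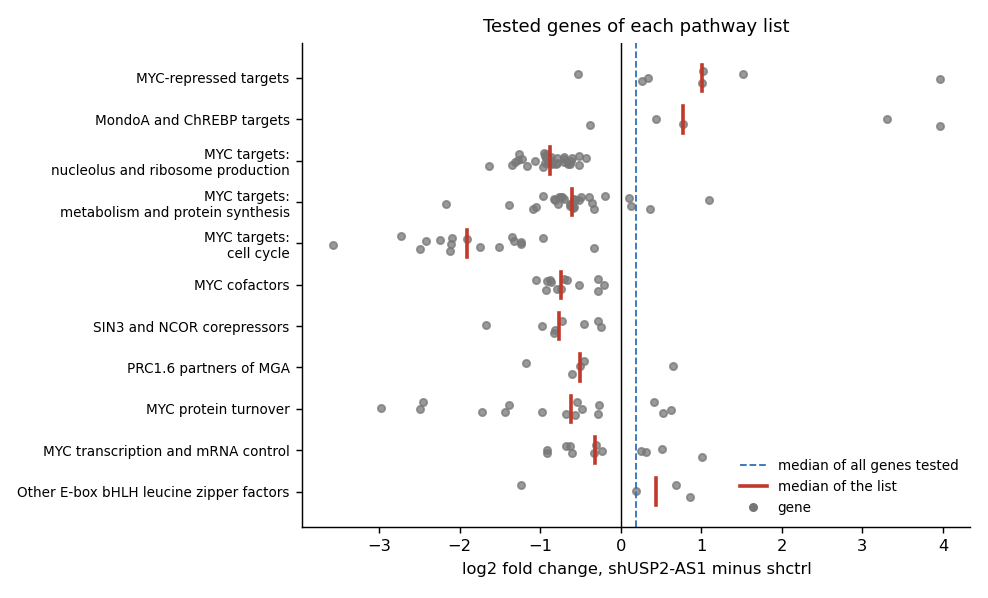
Log2 fold change between shUSP2-AS1 and shctrl cells of each tested gene of 11 pathway lists, with red lines for the list medians and a dashed line for the median of all genes tested (0.19). The lists of MYC targets lie mostly left of 0, with medians from -1.91 to -0.61, and MYC-repressed genes and MondoA targets lie mostly right of it, where the point of TXNIP rests on 3 control reads.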

How the data were processed

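RNA-seq of poly-A selected RNA was available for 4 A549 libraries, 2 of shctrl and 2 of shUSP2-AS1. The p-values measure the spread between these samples, and for limma this spread was drawn toward a trend fitted over the listed genes. Those genes were selected on the authors' adjusted p, and the effect of this on the limma p-values and intervals was not tested. The submitters' processing notes name HISAT2 2.0.5, featureCounts 1.5.0-p3, DESeq2 1.20.0 and hg38. Whether counting used the strand is not given in the sources used here. Besides MXD3 and MLX, other members share exon bases with other genes in GENCODE. On the opposite strand, MNT shares 1065 bases and MXI1 205 with lncRNA genes, and MYC 194 with CASC11. On the same strand, MXD1 shares 237 bases with SNRNP27 and MXD4 80 with MIR4800. The part of these overlaps in the values was not tested. For each library, the authors deposited a signal, the gene's reads after division by the size factor of that library. Group means, gene lengths and their own comparison (log2 fold changes and raw and adjusted p-values) were deposited by the authors too. Of these only the gene lengths were used, and the adjusted p-values to test that every listed gene was below 0.05. Library columns were matched to samples through the table's name and the replicate number, and USP2-AS1 was lower in the libraries assigned to its hairpin.

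Values were taken as log2(value + 1) and fitted, for the 6812 of 6828 genes whose mean reached 10, with limma 3.58.1 (R 4.3.3, lmFit and eBayes with a trend), a scale that understates changes of low genes, and p was adjusted by Benjamini-Hochberg over all genes tested. Called genes had an adjusted p below 0.05 and a log2 fold change of 1 or more in size. Dividing by the value of 1 read gave whole reads, within 0.01, for 100% of values in each library, and these reads served edgeR 4.0.16 and DESeq2 1.42.0 as alternatives. Libraries of 1 group were not duplicates, with a chi-square per degree of freedom of 3.72 and 3.83. The fits were tested on simulated data. Lists were described by counts and medians, with no set test. The members and lists were chosen with earlier results of these data known. The genes named are the members, USP2-AS1, GAPDH and ACTB, up to 3 called genes per list and direction with the largest change, and the 5 genes closest in profile to MYC and to the antagonist with the largest change. SIN3A, SLC7A5, E2F1, KLF6 and the genes overlapping members were added after their values were seen. The value of 1 gene that this rule would name is not reported here.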

Additional observations from a re-analysis of the deposited data

How the results depend on the processing

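The direction of all 8 members was kept under each of the 15 alternatives, and the log2 fold change of MYC ranged from -0.58 to -0.40. Many of these alternatives could not have changed a direction. Other filters, no fold threshold and the replicate block left the fold changes as they were. Because the groups did not overlap for any member, leaving out a library could not reverse a direction either. Without a fold change threshold, 8 members, 155 pathway list genes and 6811 genes of the table passed, in place of 3, 44 and 2020, because nearly every listed gene is below the p threshold. A mean of at least 100 left 1363 genes called, 648 higher and 715 lower, in place of 1098 and 922, and size factors estimated by DESeq2 gave 935 and 1143. Of the 3 called members, MXD4 and MXD3 were called under every alternative. RLE scaling and DESeq2 with its own size factors replaced MXD1 by MXI1, so that 1 member was called higher and 2 lower, and in the lists gave 4 higher and 55 lower calls in place of 8 and 36. Both sets of factors were computed from the listed genes alone. Leaving out each library in turn gave 2 to 3 called members, and the lower count came without replicate 2 of shctrl. With the replicate block, 3 members, 44 list genes and 2020 genes were called. The limma adjusted p of MXD4 was then 9.50e-49, beside 8.33e-12 in the main fit. The size of p thus depended on how the spread was modelled. Deviations from the group means had a correlation of -0.04 across genes between equal replicate numbers. With 1 difference per group, this value cannot show whether equal numbers share a batch, which was not tested. The edgeR test called 3 members and 2022 genes. DESeq2 run on the authors' own size factors, an alternative chosen after seeing the data, also called 3 members. USP2-AS1, with 2 to 24 reads per library, ranged from -2.99 to -1.78 with single libraries left out, and has no value with a mean of at least 100. Intervals of read ratios cover counting error only, and the depth of the whole libraries is not known from these files.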
